A study of Mus musculus with 2 samples.

Results

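Oxidative stress and Nrf2 response genes were taken as 10 genes: the transcription factor Nfe2l2 (the gene of Nrf2), its inhibitor Keap1, and the antioxidant genes Nqo1, Gclc, Gclm, Hmox1, Txnrd1, Srxn1, Gpx2 and Gpx1. The members were fixed by name, and no measured value entered the rule, but earlier results of these data were known when they were chosen. Every probe set annotated to exactly 1 gene symbol, that symbol being a member, was used, which gave 19 of the 45101 probe sets of the array for 10 of 18194 named genes. Messenger RNA of whole tissue from the proximal part of the intestine was compared between wild-type (WT) C57BL/6 mice and CD36KO mice, which carry a germline null allele of Cd36 in that strain. Cd36 is a receptor for long-chain fatty acids and oxidized lipoproteins. Both groups ate chow, and the sources used here give neither age nor sex. RNA of 3 animals per genotype was pooled and hybridised to 1 Affymetrix array, so each genotype is 1 measurement. The germline null allele affects Cd36 in every tissue, and the pooling removed the spread between animals.

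Nrf2 is the main regulator of the cell's answer to oxidants and reactive chemicals. Keap1 holds it in the cytoplasm and hands it to a ubiquitin ligase for destruction, and oxidation of cysteines of Keap1 stops this, so that Nrf2 enters the nucleus, pairs with a small Maf protein and binds antioxidant response elements near its target genes. Much of this control acts on the Nrf2 protein, so the messenger RNA of Nfe2l2 and Keap1 is no measure of pathway activity. In the small intestine the targets serve a surface exposed to food oxidants, bile and bacteria, and Gpx2 is known as the gastrointestinal glutathione peroxidase of the epithelium.

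The deposited values are on a log2 scale, and all differences are CD36KO minus WT on that scale. A probe set counted as above the filter if its larger value reached 4.51, the median of that quantity over the array. With 1 array per genotype there was no test, and a difference could not be set against replicate error. Differences of at least 1.5-fold were counted as a description. The medians of the arrays were 4.38 and 4.38. Cd36 read 2.33-fold to 3.56-fold lower in the CD36KO pool at its 3 probe sets, and the sources used here do not place these relative to the deleted part. Of 11 measured enterocyte markers all were above the filter, at 10.6 to 14.2 in WT and 9.20 to 14.1 in CD36KO. The pools differed in other ways, whose part in the values below was not tested. The 3' minus 5' difference of the control RNAs was smaller in CD36KO (1.34 against 2.28 for beta-actin and 0.71 against 1.28 for GAPDH). Distal small intestine markers were higher in CD36KO (11 of 11 above the filter by at least 1.5-fold). Of these, Fgf15 and Slc10a2 passed the filter in CD36KO alone. By the same measure proximal markers were lower (7 of 14), and 15 of 16 pancreas acinar markers were higher. Beside these counts stand shares of 5.31% higher and 3.31% lower among all 11981 genes that passed the filter.

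The Nrf2 response genes did not differ in 1 direction. Of the 19 member probe sets, 18 were above the filter. Gpx2, Srxn1 and Keap1 each had a probe set past 1.5-fold upwards in CD36KO, 3 of 18, while 6.86% of all 19482 named probe sets above the filter were that much higher. Nqo1 alone among the members was at least 1.5-fold lower, 1 of 18 probe sets, against 3.46% of all. The other 14 lay within 1.5-fold. The median difference of the 18 member probe sets above the filter was 0.076, and that of all named probe sets above the filter was 0.0057. Without the filter it was 0.10 for all 19 member probe sets and -0.0036 for all named probe sets. With each gene represented by its probe set of highest mean level, Gpx2 was the 1 gene of 10 past 1.5-fold upwards and Nqo1 the 1 gene past it downwards, where 5.31% and 3.31% of all 11981 genes above the filter passed. The member median on that gene scale was -0.10, of opposite sign to that of the probe sets. The same shares of all genes apply to the counts of the marker lists above and of each gene list below. For Nfe2l2, Keap1, Gclc and Txnrd1 the probe set of highest level read lower in CD36KO while another read higher.

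**Figure D1:**
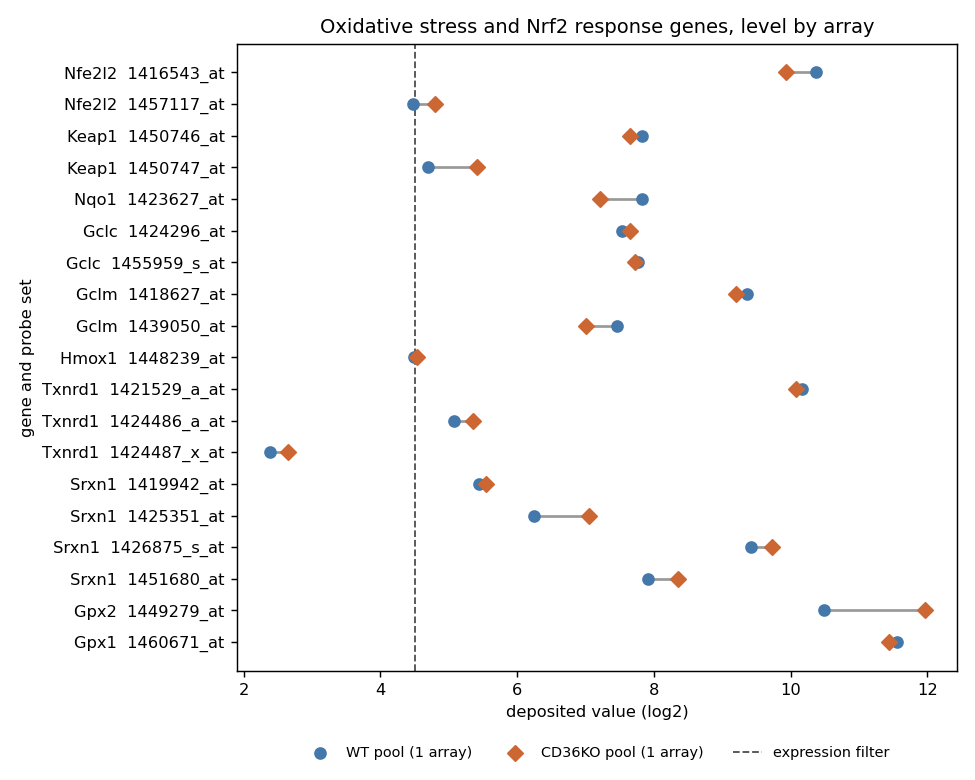
Deposited log2 value (horizontal axis) of each of the 19 member probe sets (vertical axis) in the WT pool (circles) and the CD36KO pool (diamonds), 1 array each, with the expression filter of 4.51 as a dashed line. Gpx2 shows the widest separation of the members, 10.5 against 12.0, and a Txnrd1 probe set lies below the filter; levels of different probe sets are not on a common scale.

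**Figure D2:**
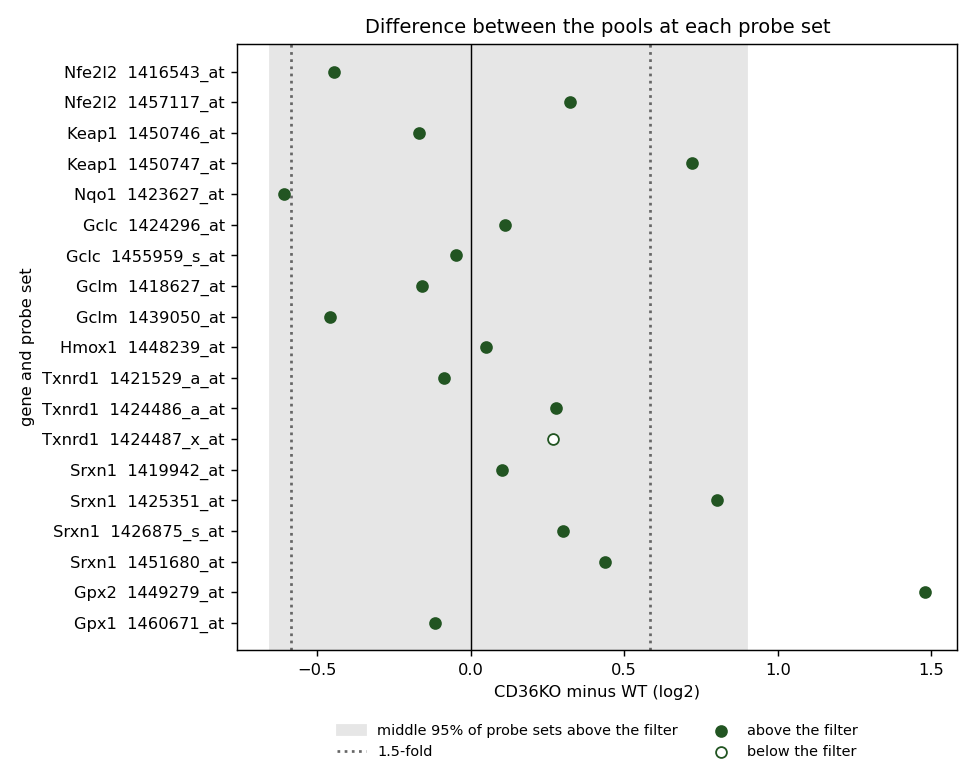
CD36KO minus WT difference (log2, horizontal axis) at each member probe set, with 1.5-fold as dotted lines and the middle 95% of the 19482 named probe sets above the filter, -0.65 to 0.90, as a grey band. Gpx2, at 1.48, is the 1 member outside the band, all 4 Srxn1 points lie to the right of 0, and both Gclm points lie to the left.

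The regulatory sequence in front of the genes is shown for the members that differed most in each direction, Gpx2, Srxn1 and Nqo1, and for the 3 others whose annotated window held an antioxidant response element core. Windows of 300 bases, 250 before the annotated start and 50 from it on, were found for 8 of the 10 members in the RefSeq table of build GRCm38.p6 (10 windows, since Txnrd1 has 3 annotated starts). They were searched on both strands for TGACNNNGC, the core of the element, and for TGANTCAGC, a form of it that shares its first letters with the site of AP-1 factors. A single site can fit both patterns. The 250 bases before the start are printed 5' to 3' in the direction of the gene, with matches in capitals, on the strand read. 
Gpx2 (chr12:76795555-76795804, minus strand): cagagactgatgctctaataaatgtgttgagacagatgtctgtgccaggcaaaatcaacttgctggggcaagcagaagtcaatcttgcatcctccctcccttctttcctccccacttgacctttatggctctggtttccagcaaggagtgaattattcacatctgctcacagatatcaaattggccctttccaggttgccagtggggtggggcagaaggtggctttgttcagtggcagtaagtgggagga
Srxn1 (chr2:152105274-152105523, plus strand): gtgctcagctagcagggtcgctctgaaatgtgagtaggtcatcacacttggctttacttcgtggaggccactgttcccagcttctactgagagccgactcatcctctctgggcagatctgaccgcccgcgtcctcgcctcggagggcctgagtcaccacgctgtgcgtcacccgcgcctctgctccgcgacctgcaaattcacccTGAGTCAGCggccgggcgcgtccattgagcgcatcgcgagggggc
Nqo1 (chr8:107403206-107403455, minus strand): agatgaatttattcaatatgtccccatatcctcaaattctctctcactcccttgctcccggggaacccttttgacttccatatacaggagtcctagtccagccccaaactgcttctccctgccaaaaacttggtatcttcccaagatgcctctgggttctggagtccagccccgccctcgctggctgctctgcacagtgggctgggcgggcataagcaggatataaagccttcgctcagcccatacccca
Gclm (chr3:122245307-122245556, plus strand): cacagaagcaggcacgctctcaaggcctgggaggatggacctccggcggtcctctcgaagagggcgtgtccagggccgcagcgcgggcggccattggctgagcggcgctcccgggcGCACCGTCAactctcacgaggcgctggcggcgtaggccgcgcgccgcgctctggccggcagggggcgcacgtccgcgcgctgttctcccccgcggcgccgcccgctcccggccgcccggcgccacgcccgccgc
Txnrd1 (chr10:82858956-82859205, plus strand): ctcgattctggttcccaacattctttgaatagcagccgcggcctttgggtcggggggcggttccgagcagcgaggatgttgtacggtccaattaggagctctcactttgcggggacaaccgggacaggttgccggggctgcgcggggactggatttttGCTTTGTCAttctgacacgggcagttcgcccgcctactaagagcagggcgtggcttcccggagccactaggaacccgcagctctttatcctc
Nfe2l2 (chr2:75704664-75704913, minus strand): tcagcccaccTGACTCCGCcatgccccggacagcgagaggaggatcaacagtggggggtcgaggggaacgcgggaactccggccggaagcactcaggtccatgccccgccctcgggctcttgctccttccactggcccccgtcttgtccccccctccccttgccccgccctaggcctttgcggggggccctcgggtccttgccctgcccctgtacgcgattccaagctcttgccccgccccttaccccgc

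A match was found in 4 of the 10 member windows, each of a different gene, and in 13% of all 32817 windows of the same length. TGANTCAGC was added after the sequences had been read, and the genes were chosen as Nrf2 response genes, so these shares are no test of enrichment. The match of Srxn1 45 bases before the start, TGAGTCAGC, fits only the added motif. A further one, TGACCTAGC on the opposite strand, began at base 29 after the start. The match of Nfe2l2 lay 240 bases before the start, read TGACTCCGC. Gclm had TGACGGTGC on the opposite strand at 134 bases, and the Txnrd1 window printed had TGACAAAGC on the opposite strand at 92 bases. Neither Gpx2 nor Nqo1 had one, which says only that these letters are absent from these windows. Members with a match differed in both directions in expression, as did those without.

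The regulators came first in the pathway. Nfe2l2 read 10.4 in WT and 9.93 in CD36KO at its main probe set, 1.36-fold lower, and 7.06% of named probe sets above the filter had a lower difference. A second Nfe2l2 probe set read 4.48 in WT, under the filter, and 4.81 in CD36KO, a difference of 0.32 of opposite sign. Keap1, the adaptor that targets Nrf2 for degradation, was likewise split. Its main probe set read 7.83 in WT and 7.66 in CD36KO, a difference of -0.17. The other Keap1 probe set read 4.69 in WT, close to the filter, and 5.41 in CD36KO, 1.65-fold higher. No direction can be given for either regulator from probe sets that point opposite ways.

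Such disagreement was common on these arrays. Among the 4801 genes with more than 1 probe set above the filter, the highest and lowest differences of a gene lay a median of 0.35 apart, and 52.2% of these genes had both signs. The gap was 0.77 for Nfe2l2 and 0.89 for Keap1, above that median and within the 95th percentile of 1.02. Nfe2l2 and Keap1 have 2 probe sets each, while that percentile includes genes with more, whose gaps can be wider for that reason. Of the 6 members with several probe sets, Gclm and Srxn1 had 1 sign at every probe set and the other 4 had both. The 3' bias of the control RNAs also differed between the pools, and its part in these gaps was not tested.

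Of the genes partnered with or acting on Nrf2, 13 of 16 were above the filter, with a median difference of 0.07, beside -0.0059 for all genes above the filter. The 1 gene of this list at least 1.5-fold higher was Sqstm1, the autophagy receptor p62 that competes for Keap1, which read 8.65 in WT and 9.30 in CD36KO (1.56-fold). Its second probe set, below the filter, differed by 0.06. Maff, a small Maf partner, read 5.41 and 5.94, a difference of 0.53. Mafg, a related partner, differed by -0.28 and the kinase Gsk3b by -0.26, the latter with other probe sets from -0.09 to 0.54. None was at least 1.5-fold lower, and Cul3 (0.10), the ligase scaffold to which Keap1 binds, and Bach1 (0.05), a repressor at the same elements, differed little at their main probe sets. The 4 other probe sets of Cul3 ranged from -0.06 to 0.73.

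Glutathione synthesis genes differed by less than 1.5-fold. Gclc, the catalytic subunit of glutamate-cysteine ligase, the rate-limiting enzyme of glutathione synthesis, read 7.77 in WT and 7.72 in CD36KO at the probe set of highest level. Another Gclc probe set read 7.54 and 7.65, so that the differences were -0.05 and 0.11. Gclm, the modifier subunit of the same enzyme, was lower at both probe sets. They read 9.36 and 7.47 in WT against 9.20 and 7.01 in CD36KO, differences of -0.16 and -0.46.

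In the wider glutathione list 14 of 17 measured genes were above the filter. Of these, 1 was at least 1.5-fold higher and 0 lower, beside 5.31% and 3.31% of all genes, and the median was -0.10. The higher gene was Gsr, glutathione reductase, which returns oxidized glutathione to its reduced form with NADPH. Gsr read 7.80 in WT and 8.56 in CD36KO (1.70-fold higher), and its second probe set differed by 2.11 in the same direction. Gss, the second enzyme of glutathione synthesis, read 9.13 and 8.66, a difference of -0.47, and -0.17 at another probe set. Chac2, a glutathione-degrading enzyme, and Glrx5, a glutaredoxin of iron-sulfur assembly, differed by -0.46 and -0.45. Slc7a11, the cystine importer often used as a readout of Nrf2, was below the filter in both pools, at 3.35 and 3.02.

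The thioredoxin branch was represented by Txnrd1 and Srxn1. Srxn1, sulfiredoxin, which restores over-oxidized peroxiredoxins, was higher in CD36KO at all 4 of its probe sets. Its main probe set read 9.42 in WT and 9.73 in CD36KO, a difference of 0.30. The others read 7.91 and 8.35, 6.25 and 7.05, and 5.45 and 5.55, differences of 0.44, 0.80 and 0.10. Only 1 of the 4, the one at 0.80 (1.74-fold), passed 1.5-fold. These probe sets report on the same 2 pools, so their common sign is not replication.

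Txnrd1, cytosolic thioredoxin reductase, a selenoprotein, read 10.2 in WT and 10.1 in CD36KO at its probe set of highest level, a difference of -0.09. A second read 5.08 and 5.36, a difference of 0.28. The third, with probes that may match other genes, read 2.39 and 2.66 and was below the filter. Of 18 other thioredoxin, peroxiredoxin, sestrin and methionine sulfoxide reductase genes, 15 were measured by a named probe set, and Prdx1, Prdx5 and Prdx6 were not. All 15 were above the filter, 0 passed 1.5-fold in either direction and the median was 0.01. The differences of largest size were those of the mitochondrial reductase Txnrd2 (-0.51, with other probe sets from -0.05 to 0.20), the methionine sulfoxide reductases Msrb3 (0.51) and Msrb1 (0.38), and Txnip, the inhibitor of thioredoxin (0.40, and 1.60 at another probe set).

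Gpx2 had the largest difference of any member. Its only probe set read 10.5 in the WT pool and 12.0 in the CD36KO pool, 2.79-fold higher in CD36KO. Among the 19482 named probe sets above the filter this was rank 143 from the highest difference, and 0.857% of them had a larger absolute difference. Gpx2 encodes an epithelial enzyme that reduces hydrogen peroxide and lipid hydroperoxides with glutathione and is known to be most abundant near the crypt base. In whole tissue, more cells of a type and more RNA per cell cannot be told apart. Of 11 crypt stem and proliferation markers, all above the filter, 1 was at least 1.5-fold higher and 0 lower, with a median of 0.21 and a summed linear level of 5250 in WT and 5807 in CD36KO. Of 6 Paneth cell markers, 4 were at least 1.5-fold higher, with a summed level of 14483 and 32507. The part of these cells, and of the distal markers (summed level 3025 and 17338), in the Gpx2 value was not tested. Such sums give most weight to genes of high level. In the distal list Fabp6 read 6.25 in WT and 12.9 in CD36KO, and in the Paneth list Ang4 read 11.3 and 13.5.

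Gpx1, the ubiquitous cytosolic peroxidase of the same family, read 11.6 in WT and 11.4 in CD36KO, a difference of -0.11. The other peroxidases of the family were split as well. Gpx8, of the endoplasmic reticulum, read 5.39 and 6.09 (1.62-fold higher), and the secreted Gpx3 read 8.75 and 9.31 (0.55). Gpx4, the enzyme that protects membranes from lipid peroxidation, read 11.7 and 11.4, a difference of -0.28, and -0.58 at another probe set. Gpx5, Gpx6 and Gpx7 were below the filter in both pools. Thus Gpx2, Gpx3 and Gpx8 read higher in CD36KO while Gpx1 and Gpx4 read lower, with 2 of these 5 past 1.5-fold.

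Over the list of other peroxidases, catalase and dismutases, 8 of 11 were above the filter. Of these, 2 were higher and 1 lower by at least 1.5-fold, beside 5.31% and 3.31% of all genes. The median was -0.28, or -0.0078 over all 11 without the filter. Sod3, the extracellular superoxide dismutase, read 5.11 in WT and 6.09 in CD36KO (1.97-fold higher), with 0.41 at a probe set below the filter. Catalase, Cat, the peroxisomal enzyme that splits hydrogen peroxide, read 10.5 and 9.83 (1.55-fold lower), and -0.82 at another probe set. Sod1, the cytosolic dismutase, read 11.8 and 11.2, a difference of -0.56, with the 3 other probe sets above the filter from -0.70 to -0.37 and 1 below it at 0.13. Fibroblast markers were higher in CD36KO as well, 7 of 9 by at least 1.5-fold (summed level 3355 in WT and 6939 in CD36KO). So were smooth muscle markers, 5 of 9 (9506 and 13597), and endothelial markers, 2 of 9 (484 and 567), both of the latter above the filter in CD36KO alone. The Paneth, pancreas acinar, distal and macrophage markers given elsewhere were also higher. With 1 array per genotype a shared direction shows no covariation. The part of any of these cells or regions in the values of Sod3, Gpx3 and Gpx8 was not tested.

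Several selenoproteins are in this group (Gpx1, Gpx2, Txnrd1), and they need a dedicated machinery to insert selenocysteine. Of 10 genes of selenium handling and selenoprotein synthesis, all above the filter, 9 were lower and 1 higher, 0 passed 1.5-fold, and the median was -0.22. Over all genes above the filter, 48.8% read higher in CD36KO to some extent. Sephs2, which makes the selenium donor, read 10.6 in WT and 10.1 in CD36KO, a difference of -0.56, with other probe sets from -0.18 to 0.10. Trnau1ap, Sepsecs and Scly differed by -0.44, -0.39 and -0.37. With the probe set of smallest absolute difference per gene the median of this list was 0.05, so its sign depended on the choice of probe set.

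Nqo1 was the member lowest in CD36KO relative to WT. It encodes a cytosolic reductase that takes quinones to hydroquinones in a single step and is among the most used readouts of Nrf2 activity. Its only probe set read 7.83 in WT and 7.22 in CD36KO, 1.52-fold lower, just past the 1.5-fold mark. Of named probe sets above the filter, 3.13% had a lower difference. Gpx2 and Nqo1, both known targets of Nrf2, thus differed in opposite directions between the pools.

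**Figure D3:**
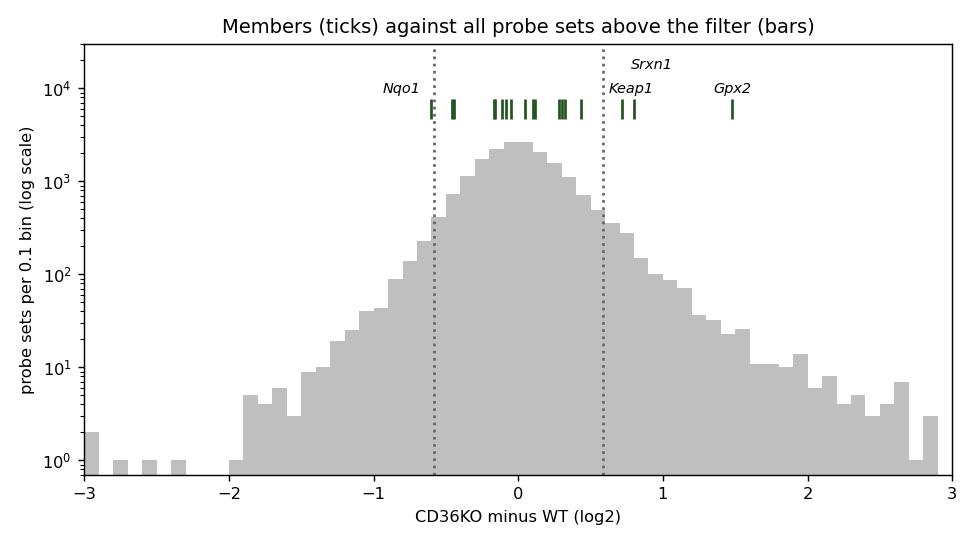
Number of named probe sets above the filter per bin of 0.1 in CD36KO minus WT difference (bars, log vertical axis), with the 18 member probe sets above the filter as ticks and 1.5-fold as dotted lines. Differences below -3 are counted in the first bar and those above 3 are not drawn. Gpx2 stands at 1.48 in the right flank, Srxn1 (0.80), Keap1 (0.72) and Nqo1 (-0.61) lie just past the dotted lines, and the other 14 ticks lie between them.

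Other genes known as Nrf2 targets were mostly lower, as Nqo1 was. Of 37 listed, 32 were measured by a named probe set and 30 were above the filter. Of these, 15 were at least 1.5-fold lower and 1 was higher, beside 3.31% and 5.31% of all genes, and the median was -0.59. Gsta2, a glutathione transferase, read 7.07 in WT and 4.55 in CD36KO (5.74-fold lower). Its CD36KO value lay just above the filter of 4.51, so the size of this fold is uncertain. The exporter Abcc2 read 8.18 and 6.74 (2.72-fold lower), the carbonyl reductase Cbr3 6.97 and 5.67 (2.47-fold lower), and the epoxide hydrolase Ephx1 8.53 and 7.28 (2.39-fold lower). Gstm3 (2.07-fold), the carboxylesterase Ces1g (2.05-fold), Gstm6 (2.02-fold) and Gstm4 (2.02-fold) followed. Gstm genes are close paralogs whose probe sets may share signal. Gsta3 (-0.95), counted as lower, was above the filter in WT alone, and its other probe set, below the filter, differed by 0.17. That genes of drug metabolism were lower in CD36KO was known when this list was written, so the count is no independent evidence of its direction.

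Most of the lower genes act on foreign compounds. Divided by function after the values were seen, 14 of 20 genes of conjugation, reduction, hydrolysis and export were at least 1.5-fold lower. None was that much higher, beside 3.31% lower and 5.31% higher of all genes, and their median was -0.95. Of the 9 glutathione transferases of the alpha, mu and pi classes in the list, 8 were at least 1.5-fold lower, and Gstp1 (-0.18) was the exception. Both counts of lower genes hold Gsta3, which was above the filter in WT alone. Of 10 genes of thiol, NADPH, iron and peroxide metabolism, 1 was lower (Cat), 1 was higher (Gsr) and the median was -0.09. Among the latter Me1, an NADPH-producing malic enzyme, differed by 0.53 (0.71 at another probe set), Txn1 by -0.09, Taldo1 by 0.03 and the ferritin gene Fth1 by -0.09. Genes that act on foreign compounds can also be controlled by xenobiotic receptors, whose part here was not tested. Markers of the proximal small intestine were lower in CD36KO as well, all 14 above the filter to some extent and 7 by at least 1.5-fold (summed level 41726 in WT and 29520 in CD36KO), and their part in this result was not tested. Over all genes above the filter, 48.8% were higher in CD36KO to some extent.

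Hmox1, haem oxygenase, which breaks haem into biliverdin, iron and carbon monoxide and is strongly induced by oxidants and haem, lay at the filter. It read 4.49 in WT and 4.54 in CD36KO, a difference of 0.05, with the WT value just under 4.51. At this signal a difference in Hmox1 was not detectable. Macrophages are a known source of Hmox1. Of 15 macrophage markers 11 were above the filter. All 11 were higher in CD36KO to some extent, beside 48.8% of all genes above the filter, and 4 by at least 1.5-fold. Of these 4, Cd68 was above the filter in CD36KO alone. The summed level of the list was 2111 in WT and 3329 in CD36KO, and 1407 and 1811 without Lyz2. The part of these cells in the Hmox1 value was not tested, and the 3 measured red blood cell markers were below the filter.

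Of 14 measured genes of haem and iron handling, 12 were above the filter, 0 passed 1.5-fold and the median was -0.07. Flvcr1, a haem exporter, had the largest difference at -0.58, with -0.23 at another probe set. Hmox2, the constitutive haem oxygenase, read 9.21 in WT and 8.88 in CD36KO, a difference of -0.33. The haem transporter Slc48a1 differed by 0.27 and the haem synthesis gene Urod by -0.30.

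On the side of oxidant production, 11 of 14 measured genes passed the filter. Of these, 2 were higher by at least 1.5-fold and 0 lower, beside 5.31% and 3.31% of all genes above the filter, and the median was 0.35. Duoxa2, the maturation factor of the epithelial dual oxidase, read 3.91 in WT, under the filter, and 6.61 in CD36KO, a difference of 2.70, so it passed the filter through CD36KO alone. Cybb, the catalytic subunit of the phagocyte NADPH oxidase, read 6.21 and 6.80, a difference of 0.59 at the edge of 1.5-fold, with -0.43 at its other probe set above the filter and 0.57 at one below it. Its partner subunit Cyba differed by 0.54 and the organizer Noxo1 of the epithelial NADPH oxidase by 0.56. Xdh and the monoamine oxidases Maoa and Maob, which release hydrogen peroxide, differed by -0.42, -0.20 and -0.33. The macrophage markers given beside Hmox1 were higher in CD36KO as well, and their part in the values of the phagocyte oxidase genes was not tested. With the probe set of smallest absolute difference per gene the median of this list was -0.07.

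**Figure D4:**
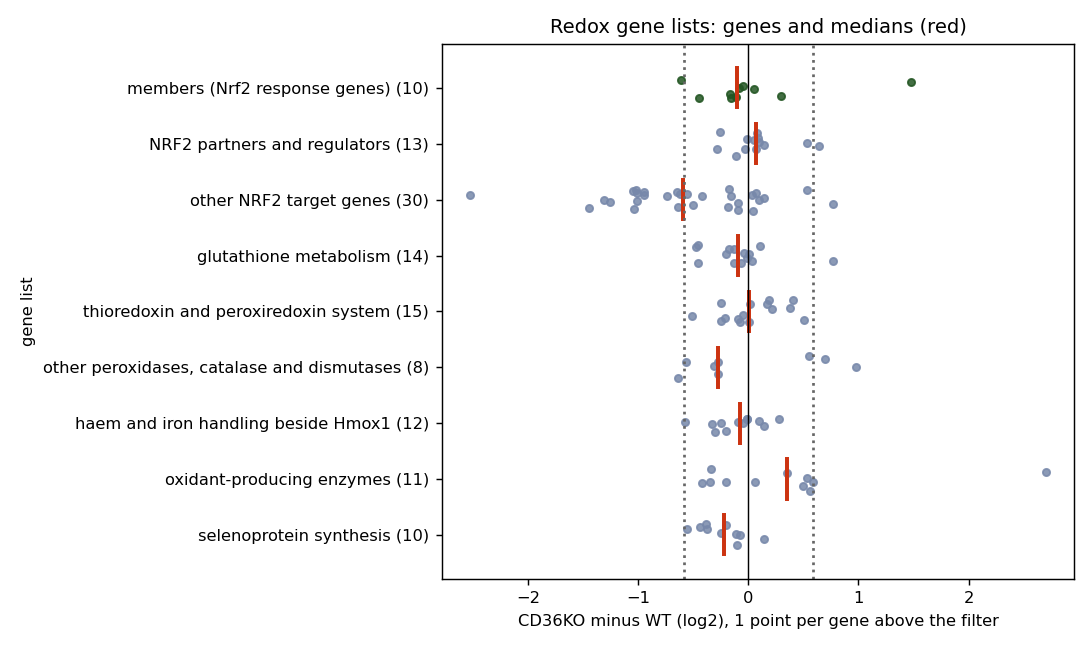
CD36KO minus WT difference (log2, horizontal axis) of each gene above the filter (points) in the 10 members and 8 lists of related genes (vertical axis, number of genes in brackets), with list medians as red bars and 1.5-fold as dotted lines. The other Nrf2 target genes have a median of -0.59 and reach down to Gsta2 at -2.52, whose CD36KO value was near the filter. The thioredoxin, haem and selenoprotein lists lie wholly between the dotted lines.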

How the data were processed

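The authors deposited 1 table of 45101 probe sets with a log2 value for each of the 2 arrays. The log2 scale was read from the values. How probes were summarized and arrays normalized is not stated in the sources used here. Per the labels' protocols, 100 ng of total RNA went into each biotin-labelled cRNA. From GEO's platform annotation, 34958 probe sets carried 1 gene symbol, 932 several (not named) and 9211 none. The gene identifiers of 34754 were found in the RefSeq table of GRCm38.p6. List genes were matched by symbol, or else through that table by gene ID.

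Differences are plain subtractions of the deposited values. The rule named all members with every probe set, and in each list the up to 4 genes above the filter with the largest absolute difference (up to 8 among other Nrf2 targets). Other genes are examples chosen after their values were seen. Members and lists were chosen with earlier results of these data known, and the motif TGANTCAGC was added after the sequences had been read. Summed levels add 2 to the power of each value over a marker list. Alternatives were centring, quantile normalization, lowess (fraction 0.3), other filters and thresholds, and other choices of probe set. The tools were pandas 2.3.3 and NumPy 2.4.6 under Python 3.11.15, with statsmodels 0.14.6 for lowess and matplotlib 3.10.9 for plots, and the calculation was tested on simulated data. The number of arrays limits the precision.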

Additional observations from a re-analysis of the deposited data

How the results depend on the processing

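No paired analysis was possible because each genotype has 1 pooled array, and leaving out a replicate was not possible either. All 57 recomputed values of the 19 member probe sets (centring, quantile normalization, lowess) stayed on the same side of 1.5-fold with the same sign, and the largest move was 0.04. With the filter at the 75th percentile, member probe sets counted 2 higher and 1 lower, since the Keap1 probe set dropped out. At 2-fold, member probe sets counted 1 higher and 0 lower, and genes 0 lower. At a lower threshold, a log2 difference of 0.32, they counted 5 higher and 3 lower, and genes 2 lower. Other Nrf2 targets counted 0 higher and 9 lower at 2-fold, 2 higher at the lower threshold, and 2 higher with the mean over probe sets. Their median, -0.59, just passed 1.5-fold, and came to -0.58 after lowess, -0.53 with no filter, -0.56 with the mean over probe sets and -0.53 with the probe set of smallest difference. Of 56 recomputed list medians 5 changed sign, all from values under 1.5-fold. These were the thioredoxin list (-0.019 with the filter at the 75th percentile, -0.015 with the mean over probe sets) and, with the probe set of smallest difference, the Nrf2 partners (-0.013), oxidant producers (-0.068) and selenoprotein genes (0.045). The peroxidase median, -0.28, was -0.0078 with no filter. Without detection calls, values near the filter, as of Hmox1 in both pools and Gsta2 in CD36KO, cannot be told from no signal.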
